A study of Mus musculus with 5 samples.

Results

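The ligands of the tumor necrosis factor (TNF) superfamily were examined in Tregs, the CD4 T cells that depend on the transcription factor Foxp3 and hold immune responses in check. The members were the 9 rows of the count table whose symbol was Tnf, Lta, Ltb, Cd40lg, Fasl, Tnfsf8, Tnfsf10, Tnfsf11 or Tnfsf14, of 24084 genes in all. They were chosen by name and not by a measured value, although earlier results of these data were known. The study sequenced RNA of sorted Tregs from Foxp3-DTR mice aged 13 days, with 3 libraries of the nodes draining the skin and 2 of the skin itself. All 5 libraries carried the Foxp3-DTR/GFP allele, in which the Foxp3 gene also drives a diphtheria toxin receptor and a green fluorescent protein, and the labels name no treatment. How many mice and cells each library came from was not stated in the labels. The p-values therefore measure only how these libraries vary, which may be technical.

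TNF superfamily ligands are mostly made as trimeric proteins anchored in the membrane, act on a neighboring cell that carries the matching receptor, and can in part be released by proteases. Their receptors either recruit TRAF adaptors, which activate NF-κB and favor survival and activation, or carry death domains that can trigger apoptosis. In T cells the family covers inflammation (TNF), the organization of lymphoid tissue (the lymphotoxins and RANKL), help to dendritic cells and B cells (CD40 ligand) and killing (Fas ligand and TRAIL).

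The genes Ltb, Tnf and Lta lie side by side on chromosome 17 of mm10, the build of the files. Lta (35203165 to 35205351) and Tnf (35199381 to 35202007) are both on the minus strand, with 1157 bases between them, and Ltb (35194439 to 35196320) is on the plus strand, 3060 bases from the Tnf gene. The other members lie apart, Tnfsf14 elsewhere on chromosome 17 (57189492 to 57194177), Fasl on 1 (161780689 to 161788495), Tnfsf10 on 3 (27317028 to 27342427), Tnfsf8 on 4 (63831308 to 63861347), Tnfsf11 on 14 (78277445 to 78308043) and Cd40lg on X (57212143 to 57224042). In the GENCODE M21 annotation of that build, 0 bases of the members' exons overlap an exon of another gene.

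Promoter sequences were matched for 8 of the 9 members in RefSeq (build GRCm38.p6), all but Cd40lg. The 250 bases before the annotated start are shown for 4 of them. Lta was the 1 member called and Tnf is its neighbor, Fasl split the skin libraries most widely, and the values of Tnfsf14 did not overlap between the groups. The values of Tnfsf11 did not overlap either, so this does not single out Tnfsf14. The sequence of Tnfsf11, in which none of the motifs searched was found, is not shown. Capitals mark a match, on either strand, to GGAAAA, a core bound by NFAT, or to the AP-1 motif TGANTCA (N is any base).
Lta (chr17:35205352-35205601, minus strand): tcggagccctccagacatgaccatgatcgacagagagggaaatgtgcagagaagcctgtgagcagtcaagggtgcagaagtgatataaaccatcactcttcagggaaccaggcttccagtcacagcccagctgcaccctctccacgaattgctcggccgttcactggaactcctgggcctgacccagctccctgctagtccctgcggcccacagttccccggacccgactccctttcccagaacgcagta
Tnf (chr17:35202008-35202257, minus strand): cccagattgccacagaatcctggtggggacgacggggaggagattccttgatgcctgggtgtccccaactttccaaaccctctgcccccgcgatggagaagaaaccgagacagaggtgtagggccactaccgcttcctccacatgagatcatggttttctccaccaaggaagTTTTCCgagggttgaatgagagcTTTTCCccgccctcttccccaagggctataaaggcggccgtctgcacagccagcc
Fasl (chr1:161788496-161788745, minus strand): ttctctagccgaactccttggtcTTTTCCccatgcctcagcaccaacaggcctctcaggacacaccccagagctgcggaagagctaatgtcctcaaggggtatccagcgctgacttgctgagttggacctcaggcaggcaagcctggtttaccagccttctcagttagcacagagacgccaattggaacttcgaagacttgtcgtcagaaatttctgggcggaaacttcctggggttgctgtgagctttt
Tnfsf14 (chr17:57194182-57194431, minus strand): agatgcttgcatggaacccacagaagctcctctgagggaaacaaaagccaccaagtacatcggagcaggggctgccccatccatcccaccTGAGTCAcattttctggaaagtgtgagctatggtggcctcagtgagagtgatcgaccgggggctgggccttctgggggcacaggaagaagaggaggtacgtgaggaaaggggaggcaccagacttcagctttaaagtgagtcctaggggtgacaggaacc

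In the windows of 300 bases around the start (50 of them after it), Tnf held 2 NFAT matches, at -78 to -73 and -55 to -50, and Fasl held 1, at -227 to -222, counted in bases before the start. All 3 lie on the strand opposite to the gene. The kappaB motif, searched as GGANTTTCC, was found in Ltb, also on the opposite strand (GGAAAGTCC on the gene's own strand, at -87 to -79), and the AP-1 motif in Tnfsf14 (TGAGTCA at -160 to -154). No matches overlapped, and the windows of Lta, Tnfsf8, Tnfsf10 and Tnfsf11 held none of these letters. Of all 32851 windows of this length, 23.4% held the NFAT letters, 7.81% the AP-1 letters and 1.25% the kappaB letters, on both strands.

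Values are given as CPM, a gene's count per 1000000 counts of the library after TMM scaling of library sizes. A fold change sets skin against lymph node, so a negative log2 value means lower in skin. Gene counts per library ranged from 10468795 to 14595018, so that 1 count was worth 0.0679 to 0.0999 CPM. At least 1 count was found for 12173 to 12540 genes in the lymph node libraries and for 9894 and 9192 in the skin libraries. The skin libraries also differed more from each other than the lymph node libraries did, with a chi-square per degree of freedom of 328 against 53.0 to 77.3 between lymph node pairs. Each member is therefore given in skin library 1 and skin library 2 separately, with fold changes of fits that leave out 1 skin library. Such a fit holds 1 skin library and thus no spread between skin libraries. Only the size of the change is given for it, without a p-value. The Treg gene Foxp3 was at 94.8 ± 5.09 CPM (SD, n = 3) in lymph node and 97.8 ± 28.1 CPM (SD, n = 2) in skin, and Il2ra, the IL-2 receptor alpha chain, at 1303 ± 136 and 1204 ± 139 CPM. Of 14 Treg identity genes, 5 were called higher and 3 lower in skin. Summed CPM of 17 macrophage and dendritic cell markers were 11.99 to 22.3 in lymph node and 1651 and 2296 in skin, 7 of the 13 tested being called higher and 0 lower, with 8 of the 17 at 0 in all lymph node libraries. The sum of 11 pan T cell genes was 13523 to 16294 in lymph node and 8731 and 9822 in skin, with 0 called higher and 2 lower. Of the other marker lists, keratinocyte genes summed to 12.3 to 13.8 CPM in lymph node and 134 and 173 in skin, fibroblast genes to 0.272 to 3.68 and to 89.4 and 9.99, endothelial genes to 353 to 499.9 and to 69.1 and 2.90, B cell genes to 82.3 to 229 and to 22.1 and 72.3, innate lymphoid genes to 44.0 to 55.0 and to 279 and 28.4, and mast cell genes to 9.65 to 24.9 and to 12.8 and 0. Several of these sums rest mostly on 1 gene. Pecam1 held 371, 499.8 and 352 CPM of the endothelial sums in lymph node, where Cdh5, Kdr and Vwf had no count. Of the 9 B cell markers, 8 had no count in skin, and Cd79b made up the sum there. Il1rl1 held 199 and 28.2 CPM of the innate lymphoid sums in skin, while Il22, Il23r, Il5 and Il13 had no count in any library. All 7 neutrophil markers were at 0. The most abundant marker in skin was Icos for Tregs, Cd2 for T cells, Lyz2 for macrophages, Krt14 for keratinocytes and Cd79b for B cells.

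All 9 ligand genes were detected and passed the low-count filter. Of these, 1 was lower in skin Tregs (Lta), 0 were higher and 8 did not pass an adjusted p of 0.05 in edgeR's quasi-likelihood test. Among all 11437 genes tested, 7.70% passed, 5.30% lower and 2.40% higher. Both skin values lay below all lymph node values for 3 members (Lta, Tnfsf11 and Tnfsf14), against 33.5% of all tested genes, and above them for 0, against 16.8%. The members' median log2 fold change was -0.82, and that of all tested genes was -0.21. Summed over the 9 genes, the ligands were at 614, 597 and 608 CPM in the lymph node libraries and at 329.8 and 349.9 CPM in the skin libraries. Without Lta, the other 8 genes summed to 319, 318 and 304 CPM in lymph node, and to 287.4 and 286.7 CPM in skin. These close skin sums came from different genes. In skin library 1 Cd40lg was at 158 and Tnfsf10 at 75.0 CPM, with Fasl and Tnfsf8 at 0. In skin library 2 Fasl was at 115 and Tnfsf8 at 91.4 CPM, with Cd40lg at 54.8 and Tnfsf10 at 10.4 CPM. In bulk libraries, fewer expressing cells and less RNA per cell cannot be told apart.

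**Figure D1:**
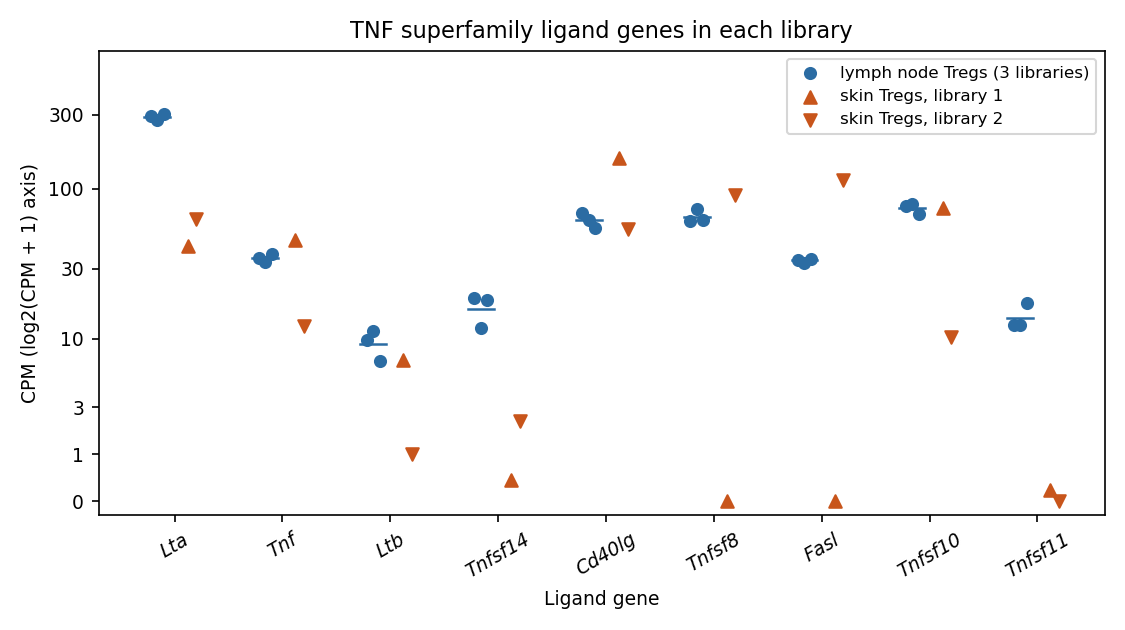
CPM of the 9 ligand genes on a log2(CPM + 1) axis in each lymph node library (circles; the line is the mean on that axis) and in skin libraries 1 and 2 (upward and downward triangles). Lta is near 300 CPM in every lymph node library and at 42.4 and 63.2 CPM in skin, while Fasl and Tnfsf8 are at 0 in skin library 1 and at 115 and 91.4 CPM in skin library 2.

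Lta encodes lymphotoxin alpha, which is secreted as a trimer that binds the TNF receptors or joins lymphotoxin beta on the membrane to engage the lymphotoxin beta receptor. It was at 295, 279 and 304 CPM in the lymph node libraries and at 42.4 and 63.2 CPM in skin libraries 1 and 2. The lymph node libraries lay close together, and both skin libraries were far below them without overlap. The mean fell from 293 ± 12.7 CPM (SD, n = 3) to 52.8 ± 14.7 CPM (SD, n = 2), a log2 fold change of -2.47 (SE 0.31, adjusted p = 0.0352), or 5.54-fold lower. The value was -2.22 without skin library 1 and -2.79 without skin library 2. Leaving out lymph node library 1, 2 or 3 kept the size (-2.46, -2.50 and -2.44) but lost the call (adjusted p = 0.113, 0.115 and 0.115), in fits where edgeR called 0 of all genes and 2361 to 2485 had an unadjusted p under 0.05. DESeq2 and limma-voom were run with all 5 libraries only, and over all alternatives the adjusted p of Lta ran from 3.23e-12 to 0.323.

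The pan T cell sum was lower in both skin libraries, and Lta was also set against Cd3e, a chain of the T cell receptor complex, within each library. Lta counts were 0.147, 0.155 and 0.133 of the Cd3e counts in lymph node and 0.0400 and 0.0513 in skin. The 2 skin ratios thus also lay below all lymph node ratios, although Cd3e itself was at 2032 ± 246 CPM in lymph node, against 1146 ± 123 CPM for skin (log2 fold change -0.83, adjusted p = 0.0545). Relative to Foxp3, the Lta ratios were 3.29, 2.93 and 3.04 in lymph node, and 0.544 and 0.537 in skin. Cd3e and Foxp3 were chosen for this after their values were seen.

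Tnf, the inflammatory cytokine that gives the family its name, lies next to Lta but showed no such separation. It was at 35.4, 33.3 and 37.6 CPM in lymph node and at 46.5 and 12.3 CPM in skin libraries 1 and 2. One skin library was above all lymph node libraries and the other below them. The log2 fold change was -0.27 (95% interval -2.25 to 1.71, adjusted p = 0.872), 0.39 without skin library 2 and -1.53 without skin library 1. Within a library, which removes any effect of scaling, there were 8.33, 8.37 and 8.07 counts of Lta for each count of Tnf in lymph node, against 0.911 and 5.15 in skin.

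Ltb, the membrane-anchoring partner of lymphotoxin alpha, had the lowest counts of the 3 genes of the locus. Counts of alignments that were not unique made up 64.5 to 72.0% of all counts of each library, which need not be the share of its reads. Whether Ltb reads were lost among them was not tested. The gene was at 9.76, 11.4 and 6.93 CPM in lymph node and at 7.11 and 0.999 CPM in skin (log2 fold change -1.20, 95% interval -4.12 to 1.72, adjusted p = 0.568). Skin library 1 lay inside the lymph node range and skin library 2, with 10 counts, below it. Without skin library 1 the log2 fold change was -3.22, and without skin library 2 it was -0.40. Among 8 further genes near this locus, taken as a list, 7 were tested and 0 were called higher or lower (median log2 fold change 0.57). The most abundant were the RNA helicase gene Ddx39b, at 467 ± 38.4 CPM in lymph node against 226 ± 46.3 CPM in skin (log2 fold change -1.05, adjusted p = 0.0536), and the kinase subunit gene Csnk2b, at 256 ± 62.8 and 221 ± 4.97 CPM (adjusted p = 0.701).

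Tnfsf14 encodes LIGHT, which binds the lymphotoxin beta receptor and HVEM (Tnfrsf14). It was at 19.1, 11.9 and 18.7 CPM in lymph node and at 0.374 and 2.30 CPM in skin, from 4 and 23 counts. The groups did not overlap, but the difference was not past the threshold (log2 fold change -3.62, SE 1.24, adjusted p = 0.123). The value was -2.85 without skin library 1 and -5.44 without skin library 2. DESeq2 called it (adjusted p = 0.00494), and over the alternatives that kept both skin libraries its adjusted p ran from 0.00494 to 0.799.

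Tnfsf11 encodes RANKL, the ligand of RANK, which drives osteoclast formation and lymph node development. It was at 12.4, 12.5 and 17.8 CPM in lymph node, from 160 to 262 counts a library, and had 2 counts in skin library 1 and 0 in skin library 2. The 599 lymph node and 2 skin counts give a lymph node to skin ratio of 149, with an exact 95% counting interval of 41.0 to 1230. Reads copied by PCR and not tagged by molecule are not independent, so this interval and the limits given for 0 counts cover counting error alone. The log2 fold change in edgeR was -7.09 (SE 1.68) with an adjusted p of 0.0577, just outside the threshold, and 0.0439 with a stricter low-count filter. DESeq2 (1.41e-06) and limma-voom (0.0101) called it as well, and leaving out lymph node library 1, 2 or 3 gave 0.148, 0.147 and 0.153. Its log2 fold change was -10.53 without skin library 1, a fit with 0 skin counts whose size is no bound, and -6.19 without skin library 2. Over all alternatives the adjusted p ran from 1.41e-06 to 0.712.

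**Figure D2:**
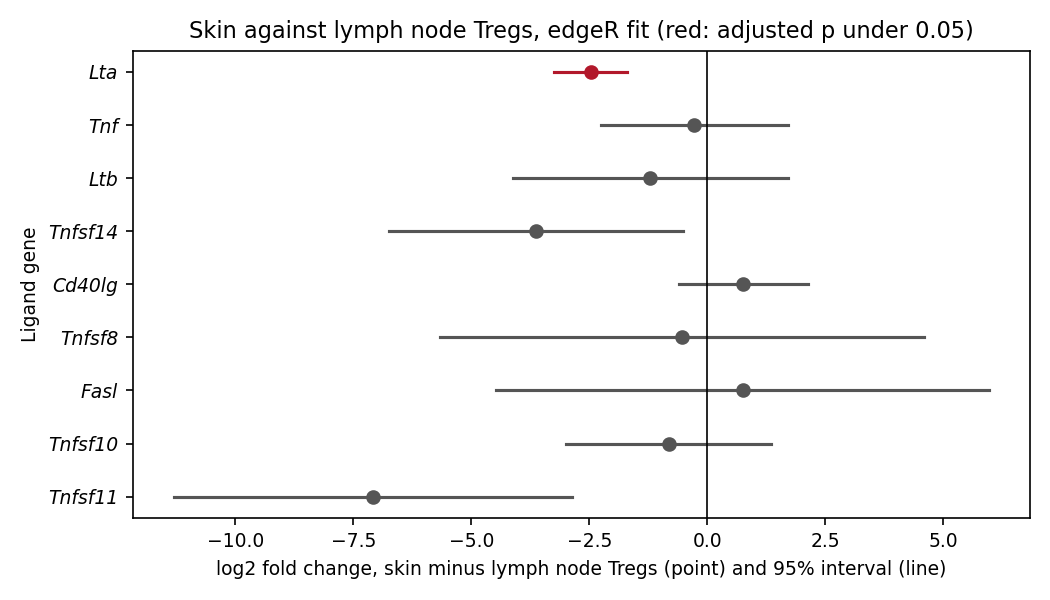
Log2 fold change of each ligand gene in skin relative to lymph node Tregs in the edgeR fit of all 5 libraries (points), with the 95% interval of each (lines). Lta, in red, is the 1 member past the threshold. The intervals of Tnfsf14 and Tnfsf11 also lie below 0, and those of the other 6 members span 0.

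Cd40lg encodes CD40 ligand, by which activated CD4 T cells stimulate dendritic cells, macrophages and B cells. It was at 69.6, 62.6 and 55.9 CPM in lymph node and at 158 and 54.8 CPM in skin. Skin library 1 was above all lymph node libraries and skin library 2 just below them. The log2 fold change was 0.76 (95% interval -0.60 to 2.13, adjusted p = 0.428), 1.33 without skin library 2 and -0.20 without skin library 1. Relative to Cd3e, Cd40lg counts were 0.0347, 0.0348 and 0.0244 in lymph node and 0.149 and 0.0445 in skin, so both skin ratios lay above the lymph node ratios. This depended on the reference, which was picked after its values were seen. Relative to Foxp3, the Cd40lg ratios were 0.777, 0.659 and 0.560 in lymph node, 2.03 in skin library 1 and 0.466 in skin library 2, the last below all lymph node ratios. For each count of Tnf there were 1.97, 1.88 and 1.49 counts of Cd40lg in lymph node and 3.40 and 4.46 in skin.

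Tnfsf8 encodes CD30 ligand, a costimulatory ligand of activated T cells. It was at 61.6, 73.9 and 62.9 CPM in lymph node, from 877 to 943 counts, while skin library 1 had no count and skin library 2 had 915 counts, or 91.4 CPM. A count of 0 in skin library 1 allows up to 0.281 CPM. The log2 fold change over both was -0.53 (95% interval -5.66 to 4.59, adjusted p = 0.903). It was 0.46 without skin library 1.

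Fasl encodes Fas ligand, which kills cells that carry the death receptor Fas. It was at 34.1, 33.0 and 35.1 CPM in lymph node, the narrowest range of the 9 members on the log2(CPM + 1) scale, at 0 in skin library 1 and at 115 CPM (1147 counts) in skin library 2. The same library that lacked Tnfsf8 thus lacked Fasl, with the same limit of 0.281 CPM, and in the other Fasl was above all lymph node libraries. The log2 fold change was 0.75 (95% interval -4.47 to 5.97, adjusted p = 0.864), and 1.74 without skin library 1. Without skin library 2 the fitted value was negative for both Fasl and Tnfsf8. Markers of CD8 T and natural killer cells, which also express Fasl, summed to 151 to 243 CPM in lymph node and to 478 and 799 CPM in skin. That sum came mostly from Nkg7, at 455 and 698 CPM in skin, while 8 of the 11 markers, including Cd8a and Ncr1, had no count in either skin library. Prf1 encodes the pore-forming protein perforin of killer cells and is on the same list. It was at 14.3, 7.29 and 7.13 CPM in lymph node, and at 0 and 101 CPM in skin libraries 1 and 2 (log2 fold change 2.40, adjusted p = 0.542), the same split as Fasl. It was named after its values were seen, and the part of such cells in the Fasl values was not tested.

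The split of Fasl and Tnfsf8 between the skin libraries was set against other genes, a comparison chosen after their values were seen. Of 4293 tested genes at 20 to 100 CPM in lymph node, 1.58% had no count in skin library 1 and exceeded all lymph node values in skin library 2, and 2.45% showed the reverse, which makes 4.03% in either direction. Among all tested genes the share in either direction was 8.59%, and among the members it was 2 of 9. On the log2(CPM + 1) scale the 2 skin libraries were 6.85 apart for Fasl and 6.53 apart for Tnfsf8. The median gap of the genes at 20 to 100 CPM was 1.35, and the gaps of the other members were 0.25 (Tnfsf11) to 2.74 (Tnfsf10).

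**Figure D3:**
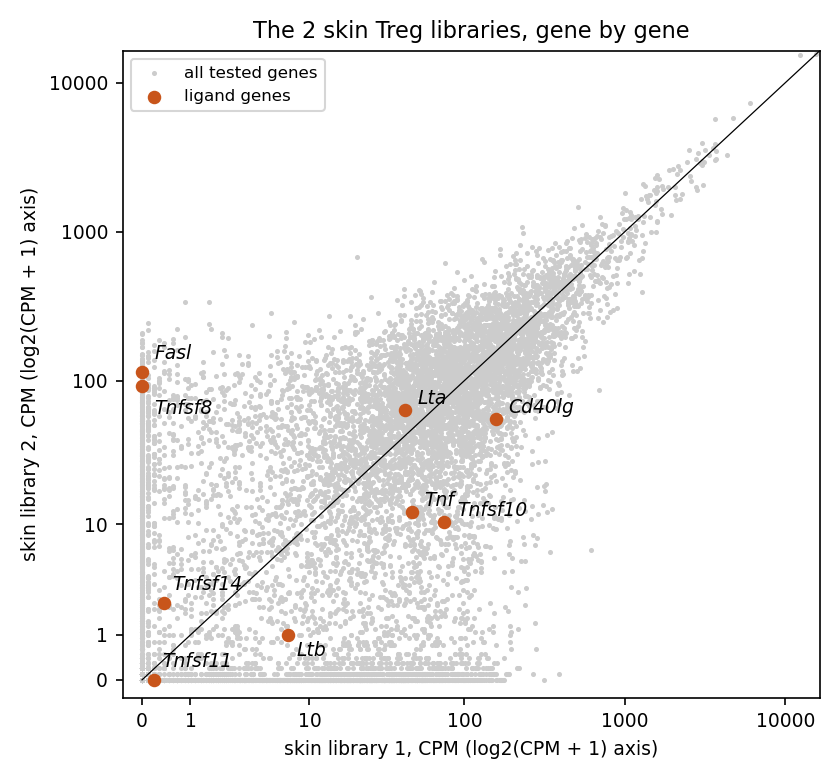
CPM in skin library 1 (x axis) and skin library 2 (y axis), both on log2(CPM + 1) axes, for all tested genes (gray) and the 9 ligand genes (orange), with the line of equal values. Fasl and Tnfsf8 lie on the left edge at 0 in skin library 1, Tnf, Tnfsf10, Ltb and Cd40lg lie below the line, and Lta lies near it at 42.4 and 63.2 CPM.

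Tnfsf10 encodes TRAIL, which can trigger death of cells that carry its receptor. It was at 77.2, 79.8 and 69.0 CPM in lymph node and at 75.0 and 10.4 CPM in skin. Skin library 1 lay inside the lymph node range and skin library 2 far below it. The log2 fold change was -0.82 (95% interval -3.00 to 1.36, adjusted p = 0.607), -2.86 without skin library 1 and -0.013 without skin library 2.

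Levels of different genes were compared per length, as CPM per kilobase of annotated exon. In lymph node Tregs Lta led at 212 ± 9.20 (SD, n = 3), followed by Cd40lg at 50.2 ± 5.48, Tnf at 21.6 ± 1.32, Fasl at 17.6 ± 0.53, Tnfsf8 at 17.4 ± 1.78 and Tnfsf10 at 14.3 ± 1.07. Tnfsf14 (8.97 ± 2.18), Tnfsf11 (6.38 ± 1.37) and Ltb (6.17 ± 1.48) were the lowest, with the limit given above for Ltb counts. The order of Fasl and Tnfsf8 changed between lymph node libraries, as did that of Tnfsf11 and Ltb. Tnfsf14 was above Tnfsf11 in lymph node libraries 1, 2 and 3 (10.3 against 5.56, 6.45 against 5.61 and 10.1 against 7.96). These orders were not tested. In skin library 1 the order began with Cd40lg (127 CPM per kilobase), Lta (30.7) and Tnf (28.4), and in skin library 2 with Fasl (59.1), Lta (45.7) and Cd40lg (43.9). Lta thus made up 59.0, 58.7 and 61.4% of the length-scaled ligand counts in the lymph node libraries, but 15.0 and 24.8% in the skin libraries. Cd40lg made up 15.4, 14.6 and 12.5% in lymph node and 61.8 and 23.8% in skin. The shares of a library add up to the whole, so a lower Lta share raises the others. Per kilobase, Cd40lg in skin library 2 (43.9) lay below all lymph node libraries (55.7, 50.1 and 44.7).

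**Figure D4:**
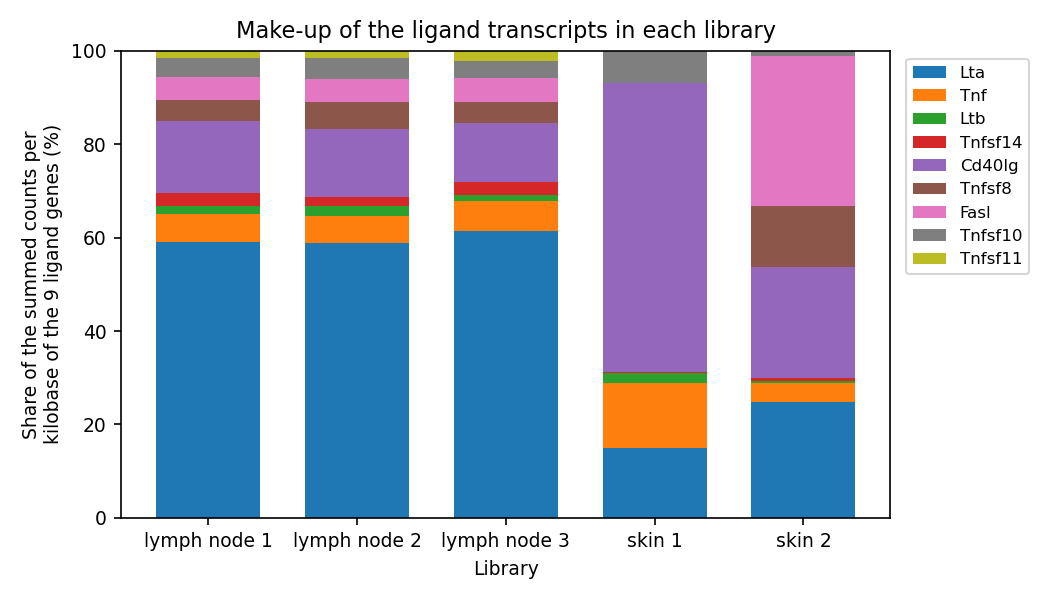
Share (%) of each ligand gene in the summed counts per kilobase of the 9 genes, 1 bar for each library. Lta takes 58.7 to 61.4% of each lymph node bar, Cd40lg takes 61.8% of skin library 1, and Fasl takes 32.1% of skin library 2 and 0 of skin library 1.

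Of 9 other TNF superfamily ligand genes, 1 of the 2 tested was called higher and 0 lower, and the 7 untested were at or below 3.65 CPM in every library. The other gene tested, Tnfsf13b (BAFF, a B cell survival factor), was at 1.29 to 2.53 CPM in lymph node and at 5.43 and 0 CPM in skin (adjusted p = 0.911). Tnfsf9 (4-1BB ligand), a costimulatory ligand found on antigen-presenting cells and activated T cells, was at 13.7, 5.57 and 5.50 CPM in lymph node and at 83.4 and 333 CPM in skin. Both skin libraries were above all lymph node libraries (log2 fold change 4.66, SE 0.82, adjusted p = 0.0460). The value was 5.33 without skin library 1 and 3.33 without skin library 2. The call was lost without a low-count filter (adjusted p = 0.0516), with limma-voom (0.145) and without any 1 lymph node library (0.113 to 0.115). Macrophage and dendritic cell markers were also higher in both skin libraries, with a sum of 1651 and 2296 CPM, and their part in the rise of Tnfsf9 was not tested.

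Of 12 receptor genes of the 9 ligands, 9 were tested, 1 was higher in skin, 0 were lower and 8 did not pass (median log2 fold change 1.07). Tnfrsf1b encodes TNF receptor 2, the TNF receptor prominent on Tregs, and rose from 237, 304 and 254 CPM in lymph node to 641 and 667 CPM in skin (log2 fold change 1.30, SE 0.20, adjusted p = 0.0434). Its call was lost without any 1 lymph node library (adjusted p = 0.113 to 0.115). The other TNF receptor, Tnfrsf1a, was at 45.3, 44.3 and 75.3 CPM in lymph node and at 11.6 and 220 CPM in skin (adjusted p = 0.593). The further receptors named here were chosen after their values were seen. Fas was at 313, 239 and 258 CPM in lymph node and 51.5 and 151 CPM in skin, with no overlap (log2 fold change -1.42, adjusted p = 0.138).

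Tnfrsf14 (HVEM), the receptor of LIGHT, was at 4.35, 20.9 and 10.1 CPM in lymph node and had no count in either skin library. The lymph node mean was 81.3 times the limit of 3 counts over the skin group, a ratio that leaves out the spread between lymph node libraries. The adjusted p was 0.0533 in edgeR, outside the threshold. It was 5.76e-05 with DESeq2, 0.00882 with limma-voom and 0.0374 with a minimum count of 50. It stayed outside with other scalings (0.0524 to 0.0534), no filter (0.0750), a lymph node library left out (0.114 to 0.126) and the replicate block (0.712). Tnfrsf10b, a TRAIL receptor, was at 1.40, 5.49 and 4.76 CPM in lymph node and 34.0 and 84.7 CPM in skin (log2 fold change 3.93, adjusted p = 0.0598). Tnfrsf22, also listed for TRAIL, was at 7.30, 7.45 and 17.5 CPM in lymph node, and lower in skin at 0 and 6.99 CPM (adjusted p = 0.667). Tnfrsf23, listed for TRAIL too, was at 7.37, 0.157 and 1.70 CPM in lymph node, and 53.6 and 0 CPM in skin (adjusted p = 0.489). Cd40 was at 2.11, 0 and 2.17 CPM in lymph node, with no count in skin (adjusted p = 0.222). Tnfrsf8 (CD30), the receptor of the Tnfsf8 product, had 5.48, 3.53 and 11.1 CPM in lymph node, and 0 and 51.2 CPM in skin (adjusted p = 0.628). Ltbr, Tnfrsf11a (RANK) and Tnfrsf11b had no count in any library, which allows up to 0.204 to 0.300 CPM in each.

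**Figure D5:**
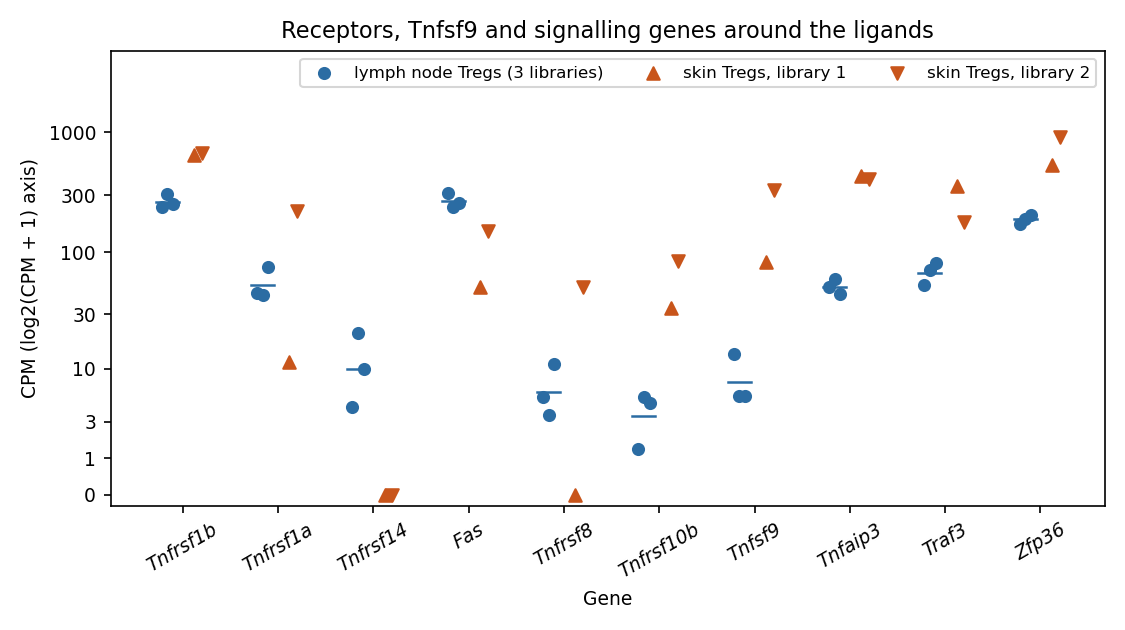
CPM on a log2(CPM + 1) axis of 6 receptor genes, of Tnfsf9 and of 3 genes of signaling and mRNA decay, in each lymph node library (circles; the line is the mean on that axis) and skin library (triangles). Tnfrsf1b, Tnfsf9, Tnfaip3, Traf3, Zfp36 and Tnfrsf10b are higher in both skin libraries, while Tnfrsf14 is at 0 in both.

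Below the receptors, 2 of 18 adaptor and signaling genes were called higher, 0 lower and 16 not (median log2 fold change 0.62). Tnfaip3 encodes A20, a feedback inhibitor of NF-κB signaling, and rose from 52.1 ± 7.98 CPM (SD, n = 3) to 421 ± 19.03 CPM (SD, n = 2), a log2 fold change of 3.01 (SE 0.26, adjusted p = 0.0224). Traf3, an adaptor that restrains the noncanonical NF-κB pathway, was at 53.0, 71.8 and 82.0 CPM in lymph node and 356 and 181 CPM in skin (log2 fold change 1.96, adjusted p = 0.0496). Its call was lost with upper-quartile scaling (adjusted p = 0.0566), unscaled library totals (0.0525) and no filter (0.0648). Leaving out any 1 lymph node library lost both calls (0.113 to 0.119). Among 8 genes of ligand shedding and cleavage, 5 were tested and 0 were called. The most abundant were the intramembrane protease gene Sppl2a, at 174 ± 1.55 and 197 ± 133 CPM, and the sheddase gene Adam10, at 167 ± 19.7 and 197 ± 201 CPM (adjusted p = 0.854 and 0.878).

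Messenger RNA of Tnf carries AU-rich elements, to which the decay factor tristetraprolin (Zfp36) binds. The 9-base element TTATTTATT, searched on the transcript strand, was found 5 times after the stop codon in the annotated Tnf transcript and 1 time after that of Lta, and in 0 of the other 7 members. The longest coding transcript of 7.99% of 21877 genes holds it. The first match of each, with the element in capitals (overlapping matches run together in Tnf), is shown from the GENCODE M21 transcripts because they are the 2 members that have one.
Tnf: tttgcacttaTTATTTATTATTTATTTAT
Lta: aaaagttaagTTATTTATTtatagagaat

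Of 9 genes of cytokine mRNA decay, 1 was called higher, 0 lower and 8 not (median log2 fold change 0.35). Zfp36 rose from 174, 188 and 204 CPM in lymph node to 532 and 902 CPM in skin (log2 fold change 1.92, SE 0.28, adjusted p = 0.0411), a call lost without any 1 lymph node library (0.113 to 0.115). Macrophages also express Zfp36, Tnfaip3 and Tnfrsf1b, and the macrophage and dendritic cell marker sum was 1651 and 2296 CPM in the skin libraries against 11.99 to 22.3 CPM in lymph node. Its part in these rises was not tested.

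For the 2 most abundant members, the genes with the most similar profile over the 5 libraries were found, by the root mean square difference of centered log2 CPM. For Lta these were Fam53b (0.12), at 99.0 ± 7.49 CPM in lymph node against 17.2 ± 5.98 CPM in skin, and Brd7 (0.12), at 104 ± 7.12 and 19.6 ± 3.63 CPM. For Cd40lg they were Fbxo25 (0.11), at 42.7 ± 8.10 and 68.7 ± 43.5 CPM, and Dyrk1a (0.12), at 71.3 ± 3.58 and 138 ± 91.9 CPM. With 5 libraries in 2 groups, such likeness rests on few points.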

How the data were processed

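RNA of Tregs was sequenced in 5 libraries. Per the labels' protocols, sorted cells were flash frozen, RNA was purified on columns and libraries were prepared with a SMARTer low-input kit. The tools named in the submitters' processing notes are HTSeq 0.6.1, SAMtools 0.1.19.0, Bowtie2 2.1.0.0, TopHat2 2.0.12 and CASAVA 1.8.2, with the build mm10. For strand setting and annotation, nothing was given in the sources used here. The table the authors deposited holds raw counts per gene symbol. Its header names stand 1 cell to the left of the values and were read so. The 5 HTSeq summary rows were left out. They held the counts outside genes, 64.5 to 72.0% of all counts not uniquely aligned, 8.35 to 14.0% outside annotated genes and 0.400 to 0.433% ambiguous.

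Counts were fitted with edgeR 4.0.16 in R 4.3.3 (filterByExpr with a minimum count of 10, TMM, quasi-likelihood F test, Benjamini-Hochberg adjustment over all tested genes, threshold 0.05). The SE is the size of the log2 fold change divided by the square root of F, and intervals use the fit's degrees of freedom. Alternatives used DESeq2 1.42.0, limma 3.58.1, other scalings and filters, and each library left out. The fits were also run on simulated counts with the same spread in both groups. The skin libraries differed more from each other here, so that run does not show how the fits behave on these data. Exon lengths come from GENCODE M21. The members, the lists and the rule for named genes (all members, and of each list up to 4 called genes or else the 2 most abundant, and for similar profiles genes whose log2 CPM averages at least 5) were chosen with earlier results of these data known.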

Additional observations from a re-analysis of the deposited data

How the results depend on the processing

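Of 881 genes called by edgeR (275 higher and 606 lower), the count became 315 (136 and 179) without a low-count filter, 1391 (419 and 972) with a minimum count of 50, 3262 (1235 and 2027) with DESeq2 and 2231 (566 and 1665) with limma-voom, and leaving out 1 library gave 0 to 6065 (0 to 2110 higher and 0 to 3955 lower), with 0 in each fit that left out a lymph node library. The number of ligand genes called, 1 in the reported fit, was 2 with a minimum count of 50 and with limma-voom, 3 with DESeq2 and 0 to 7 with 1 library left out. The upper ends of these ranges with 1 library left out come from the fit without skin library 1. That fit holds 1 skin library and no spread between skin libraries, so its counts of called genes do not measure robustness. No conclusion is drawn from them. Lta was past the threshold with each other scaling, filter and tool. It was not past it with a lymph node library left out or with the replicate number as a block. Upper-quartile scaling moved the median log2 fold change of all genes from -0.21 to -0.37, and under it Lta was at -2.63. Signs turned for genes that had not been called. With limma-voom these were Fasl (-3.83), Tnfrsf1a (-0.18), Tnfrsf8 (-1.95), Prf1 (-2.01), Sppl2a (-0.022) and Adam10 (-0.31). Foxp3 turned to -0.12 with upper-quartile scaling and -0.015 with unscaled totals. With 1 library left out, the log2 fold change ran from -1.53 (without skin library 1) to 0.39 (without skin library 2) for Tnf, -0.20 to 1.33 for Cd40lg and -0.18 to 1.21 for Fbxo25. In the other order, the lowest value being without skin library 2 and the highest without skin library 1, it ran from -11.80 to 1.74 for Fasl, -12.76 to 0.46 for Tnfsf8, -2.25 to 1.99 for Tnfrsf1a, -9.46 to 2.92 for Tnfrsf8, -9.97 to 3.39 for Prf1, -0.76 to 0.74 for Sppl2a, -1.61 to 1.02 for Adam10 and -0.29 to 0.31 for Foxp3. The fitted size for Fasl, Tnfsf8, Tnfrsf8 and Prf1 without skin library 2 rests on 0 skin counts and is no bound. A fit without 1 skin library sets the other skin library alone against lymph node. Why the 2 skin libraries differ was not tested, nor was the cause of the other sign changes. The share of Lta in the length-scaled ligand counts was 58.9 to 60.2% in lymph node with 1 lymph node library left out. In skin, leaving out 1 library only returns the share of the other, 15.0 or 24.8%, as given above.

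The replicate numbers of the titles were tried as a block. Deviations of same-numbered libraries from their group means had correlations of -0.025 for number 1 and -0.024 for number 2. The deviations of 2 skin libraries mirror each other, so these values cannot show whether the numbers pair the samples. The labels state no pairing. With the replicate block edgeR called 21 genes (11 higher and 10 lower) and 0 ligand genes, Lta was at -2.47 (adjusted p = 0.323), and Fasl (-3.42), Tnfrsf8 (-1.36), Prf1 (-1.94), Sppl2a (-0.012) and Adam10 (-0.35) turned sign. The block leaves few degrees of freedom. For counting error alone, a count of 0 at this depth allows up to 0.281 and 0.300 CPM in skin libraries 1 and 2.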
